A study of Mus musculus with 25 samples.

Results

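The genes described here are 37 enzymes of glycolysis, of the pyruvate dehydrogenase (PDH) complex and of the tricarboxylic acid (TCA) cycle, measured as RNA in neuronal nuclei of the mouse hippocampus. They were listed by pathway, by gene symbol, and are 37 of the 24411 genes in each deposited table. Glycolysis is represented by 15 members, which are Hk1, Gpi1, Pfkl, Pfkm, Pfkp, Aldoa, Tpi1, Gapdh, Pgk1, Pgam1, Eno1, Eno2, Pkm, Ldha and Ldhb. The PDH complex and the TCA cycle, with succinate dehydrogenase (complex II of the respiratory chain), are represented by 20 members, which are Pdha1, Pdhb, Dlat, Dld, Cs, Idh3a, Idh3b, Idh3g, Idh2, Ogdh, Dlst, Suclg1, Sucla2, Sdha, Sdhb, Sdhc, Sdhd, Fh1, Mdh1 and Mdh2. The other 2 members, Pcx and Akr1a1, encode pyruvate carboxylase and an aldehyde reductase.

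The study concerned neuronal ferritin light chain 1, the product of Ftl1, in the aging hippocampus. Nuclei that carry the neuronal antigen NeuN were sorted from the hippocampi of male mice, and their nuclear RNA was sequenced as 25 libraries in 3 experiments. For aging, the study compared 3 young (3 months) with 2 aged (18 months) wild-type mice. In the overexpression experiment, young mice received lentivirus in the hippocampus that encoded GFP (5 libraries) or was labelled as encoding Ftl1 (7 libraries), in each case under the Synapsin-1 promoter, which is active in neurons. In the knockdown experiment, aged mice received lentivirus with an shRNA to luciferase (4 libraries) or with an shRNA labelled as targeting Ftl1 (4 libraries).

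The deposited values are normalized counts, that is, reads per gene divided by the size factor of the library. Each table was normalized separately, so that a level in one experiment is not comparable with a level in another. The reads recovered from these values numbered 7969282, 8019699 and 9491421 in the young and 8702194 and 9537872 in the aged libraries. In the overexpression experiment, whose libraries are numbered here in the order of their records, they ran from 9943996 to 17034325. The knockdown libraries were far shallower, with 103394, 358560, 68092 and 318645 reads in the luciferase shRNA libraries against 97104, 96831, 48902 and 59886 in the libraries labelled Ftl1 KD. Of the knockdown reads, Rn45s, a ribosomal RNA precursor, took 31.9%, 55.3%, 52.9% and 49.4% in the luciferase shRNA libraries and 34.5%, 30.4%, 33.6% and 30.3% in the labelled ones, against 1.35% to 6.42% in the other experiments. Shares of reads given here leave Rn45s out.

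Glycolysis splits glucose into pyruvate in the cytosol, and lactate dehydrogenase interconverts pyruvate and lactate. The PDH complex turns pyruvate into acetyl-CoA in mitochondria, and the TCA cycle oxidizes it and passes electrons to the respiratory chain, in part directly through succinate dehydrogenase. Neurons spend much of their energy on synaptic transmission and rely strongly on mitochondrial oxidation, and several steps are catalysed by alternative isozymes, such as the enolase Eno2 that is typical of neurons.

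The gene that the viruses were made to change, Ftl1, was examined first. Its normalized counts were 1685, 1925 and 2141 in the young and 4247 and 4272 in the aged libraries, and both aged libraries were above every young one. In the overexpression experiment they were 7315, 4580.4, 28309.5, 7415 and 9953 in the GFP libraries against 4737 to 7663 (median 5171) in the libraries labelled Ftl1 OE, where control replicate 3 was the highest and the groups overlapped. In the knockdown experiment they were 49.1, 45.6, 56.2 and 24.2 in the luciferase shRNA libraries against 117, 106, 109 and 139.6 in the libraries labelled Ftl1 KD, every one of which was above every control. In limma, a linear model fitted to all genes whose normalized counts averaged 10 or more, the log2 fold change was 1.16 with age (adjusted p = 0.397), −0.67 in the libraries labelled Ftl1 OE (adjusted p = 0.681) and 1.47 in the libraries labelled Ftl1 KD (adjusted p = 0.000223). The RNA of the target was thus not higher in the libraries labelled Ftl1 OE, where it did not pass, and rose in those labelled Ftl1 KD. Directions given here for these experiments run from control to labelled libraries and say nothing of more or less Ftl1, whose protein these tables do not measure.

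All 9 neuron markers followed (Rbfox3, which encodes NeuN, Snap25, Syt1, Map2, Nrgn, Slc17a7, Gad1, Gad2 and Camk2a) were detected in each experiment. Their summed normalized counts were 37620.3, 47906 and 46496 in the young and 47536 and 46836 in the aged libraries, with Syt1 the most abundant. In the knockdown experiment the sums were 301, 293, 206 and 270.0 in the luciferase shRNA libraries against 245, 237, 226 and 241 in the libraries labelled Ftl1 KD. Markers of other cell types were present as well and are given beside each comparison. In bulk nuclei such as these, fewer nuclei of a type and less RNA per nucleus cannot be told apart.

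Levels of different members can be set side by side only per length, and normalized counts were therefore divided by the exon length of each gene. On this scale, Aldoa, the aldolase of glycolysis, had the highest level of the 37 members in the young libraries, 4276 ± 1070.2 (SD, n = 3) per kilobase. It was followed by Pkm, the pyruvate kinase, with 1749 ± 562 (SD, n = 3), and by Ldhb, with 1591 ± 229 (SD, n = 3), which is within the spread of Pkm. The cytosolic malate dehydrogenase Mdh1 ranked 4 with 1531 ± 382 (SD, n = 3) and was the highest of the PDH and TCA members. Pcx, which refills the cycle from pyruvate, was the lowest with 61.9 ± 22.5 (SD, n = 3). The median per kilobase in the young libraries was 782.3 over the glycolysis members and 267.5 over the PDH and TCA members. Aldoa also ranked 1 in the GFP libraries and in the luciferase shRNA libraries, each on the scale of its own table. The exon length used for Aldoa covers every annotated exon under that symbol. The annotated span recorded for Aldoa holds none of its start sites in RefSeq, so its levels and ranks are uncertain.

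For 4 members, stretches of 50 bases in the annotated transcripts were shared, at 1% or more of their stretches, with other genes in the tables. Eno1 shared 25.3% of its stretches with Eno1b, a copy of it whose own normalized counts averaged 1623.1 over the aging libraries, 1792 over the overexpression libraries and 32.3 over the knockdown libraries. How reads were divided between these 2 genes cannot be checked from the tables, so values of Eno1 are uncertain. Gapdh shared 19.6% of its stretches with Gm12070, whose mean was 25.4, 203.6 and 0.771 in the same order, small beside Gapdh at 5847, 57111 and 182, and at most 3.7% with other genes. The copies of Aldoa and Cs, Aldoart1 and Csl, shared 2.38% and 2.01% and had means of at most 5.02.

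Start regions were read from RefSeq for build GRCm38.p6, and 35 of the 37 members matched, with 51 start sites in all, Idh3a and Sdhc being absent. Shown here are the regions of 7 of the 8 members that rose in the libraries labelled Ftl1 KD, so that shared motifs can be looked for, as the 250 bases before the start, 5′ to 3′. Ldha encodes the A subunit of lactate dehydrogenase (upstream of 1 of its 2 starts, chr7:46845554-46845803 on the plus strand), and Ldhb the B subunit (chr6:142507958-142508207 on the minus strand). Pdha1 encodes the alpha subunit of PDH (chrX:160138431-160138680 on the minus strand) and Cs the citrate synthase (chr10:128337477-128337726 on the plus strand). Sdha encodes the flavoprotein of complex II (chr13:74350241-74350490 on the minus strand), Sdhd one of its membrane anchors (chr9:50603850-50604099 on the minus strand) and Mdh1 the cytosolic malate dehydrogenase (chr11:21571935-21572184 on the minus strand). Capitals mark matches, on either strand, to ACGTG or GCGTG (cores of hypoxia response elements), CACGTG (E-box), GCATGCGC (core of NRF1 sites) or AAGGTCA (estrogen-related receptor). CACGTG holds ACGTG, so that each of its matches also counts for that motif.
Ldha: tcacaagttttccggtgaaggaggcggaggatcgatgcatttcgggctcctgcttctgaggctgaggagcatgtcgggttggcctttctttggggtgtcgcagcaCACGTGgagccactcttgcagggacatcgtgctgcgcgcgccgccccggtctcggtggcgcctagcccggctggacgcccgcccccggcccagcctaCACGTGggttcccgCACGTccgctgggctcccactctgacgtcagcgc
Ldhb: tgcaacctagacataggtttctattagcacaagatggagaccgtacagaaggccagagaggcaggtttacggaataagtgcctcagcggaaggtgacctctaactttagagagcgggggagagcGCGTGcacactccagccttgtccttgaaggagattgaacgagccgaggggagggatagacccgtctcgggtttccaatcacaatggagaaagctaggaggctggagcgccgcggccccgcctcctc
Pdha1: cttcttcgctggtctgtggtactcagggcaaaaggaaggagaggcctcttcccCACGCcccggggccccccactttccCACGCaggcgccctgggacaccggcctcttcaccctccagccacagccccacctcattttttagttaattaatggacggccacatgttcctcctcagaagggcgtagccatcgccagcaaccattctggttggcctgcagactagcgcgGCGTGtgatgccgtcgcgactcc
Cs: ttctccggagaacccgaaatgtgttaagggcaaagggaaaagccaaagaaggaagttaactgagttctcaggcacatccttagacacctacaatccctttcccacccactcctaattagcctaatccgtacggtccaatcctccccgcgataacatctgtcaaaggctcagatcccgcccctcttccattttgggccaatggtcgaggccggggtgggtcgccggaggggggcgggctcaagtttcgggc
Sdha: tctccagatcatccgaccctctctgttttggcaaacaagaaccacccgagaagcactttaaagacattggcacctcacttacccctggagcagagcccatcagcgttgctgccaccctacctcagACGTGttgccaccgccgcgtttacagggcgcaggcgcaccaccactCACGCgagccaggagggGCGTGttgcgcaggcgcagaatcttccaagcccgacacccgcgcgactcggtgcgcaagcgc
Sdhd: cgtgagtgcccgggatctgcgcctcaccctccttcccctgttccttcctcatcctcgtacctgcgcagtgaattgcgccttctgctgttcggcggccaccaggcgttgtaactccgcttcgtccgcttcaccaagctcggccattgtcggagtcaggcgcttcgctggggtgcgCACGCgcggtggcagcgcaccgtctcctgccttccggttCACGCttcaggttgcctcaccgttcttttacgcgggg
Mdh1: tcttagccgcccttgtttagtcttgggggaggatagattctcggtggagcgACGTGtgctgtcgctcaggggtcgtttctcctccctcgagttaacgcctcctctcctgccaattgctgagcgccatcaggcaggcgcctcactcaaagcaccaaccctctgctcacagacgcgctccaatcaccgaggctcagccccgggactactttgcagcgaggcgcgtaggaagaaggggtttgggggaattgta
The Ldha region shown held ACGTG at 3 places, of which 2, 145 and 48 bases before the start, were the palindrome CACGTG, and the region of its other start held neither motif. The Cs region held none of the motifs. Pdha1 had 3 matches to GCGTG, the nearest 23 bases before the start. Over all members, ACGTG was found upstream of 6 of 15 glycolysis and 5 of 18 PDH and TCA members with a start region, and GCGTG upstream of 9 and 11. Counted over start sites, ACGTG was in 37.3% of the members' regions and 16.6% of all 32851, GCGTG in 51.0% and 28.2%, and CACGTG in 11.8% and 6.02%. GCATGCGC was in 7.84% and 2.26%, upstream of Pgam1, Ogdh and Sdhb, and AAGGTCA in 1.96% and 4.08%, upstream of Eno1 alone among the members. The members' regions were also richer in G and C, with a median of 59.2% against 52.4%, and the part of base composition in these shares was not tested. A match is a run of letters and not a measured binding site.

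With age, more glycolysis members were higher than lower and more PDH and TCA members lower than higher, but 0 of the 37 passed the test in limma. Of the glycolysis members, 12 were higher and 3 lower in the aged mice, with a median log2 fold change of 0.10. Of the PDH and TCA members, 6 were higher and 14 lower, with a median of −0.17, and the median over all 13712 genes tested was −0.03, with 48.3% of them higher. To pass, a gene needed an absolute log2 fold change of 0.5 or more besides an adjusted p no higher than 0.05, which 0% of all genes reached in limma. edgeR and DESeq2, run on the recovered reads, called 0 members as well, although DESeq2 called 163 genes (1.19%) in all. At an unadjusted p of 0.05 or less, limma counted 1 member, Pdha1, which was lower, against 7.94% of all genes (2.9% higher and 5.04% lower). This count was 2 without young replicate 1. The share of all genes at this p is not given for that fit, so no result about the members is read from it.

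The contrast between both pathways was steadier than either pathway alone. The mean log2 level of the glycolysis members minus that of the PDH and TCA members was 1.44, 1.47 and 1.52 in young against 1.81 and 1.86 in aged mice. Both aged libraries were above every young library, and the group means differed by 0.36. The pooled SD within groups was 0.27 for glycolysis, 0.25 for PDH and TCA members and 0.04 for the difference. A difference taken within a library cancels any shift common to both lists, so its smaller spread partly follows from how it is formed. Taken singly, 24.7% of all genes also had groups that did not overlap. The contrast was not tested, and 3 libraries against 2 allow no exact p below 0.1. The share of reads falling on the glycolysis members was 0.596%, 0.921% and 0.827% in the young and 0.711% and 0.964% in the aged libraries, which overlapped. For the PDH and TCA members the share was 0.303%, 0.428% and 0.388% against 0.309% and 0.364%, again with overlap. Young replicate 1 was low for both, and held the lowest value of 11 of the 15 glycolysis members. Without young replicate 1, 6 of the 15 glycolysis members were higher and their median log2 fold change was −0.066. Without aged replicate 3, the median was −0.11 for glycolysis and −0.47 for PDH and TCA members, and without aged replicate 2 it was 0.35 and −0.06, whereas the contrast stayed between 0.33 and 0.38 whichever library was left out.

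**Figure D1:**
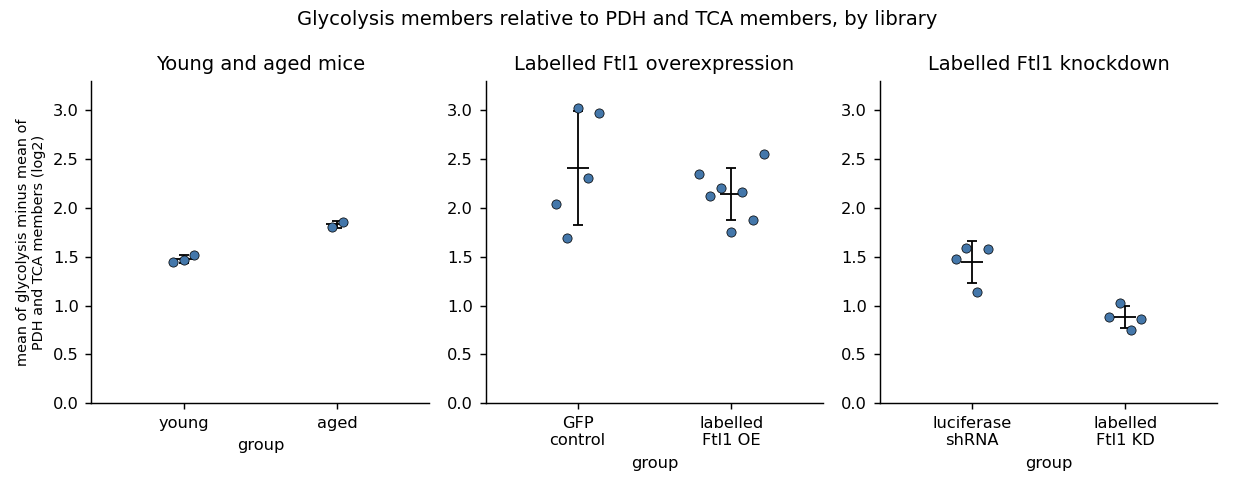
Mean log2(normalized count + 1) of the glycolysis members tested minus that of the PDH and TCA members tested, for each library (points), with group mean and SD (bars); each table was normalized separately. Both aged libraries (1.81 and 1.86) lie above the young ones, the overexpression groups overlap, and all libraries labelled Ftl1 KD (at most 1.03) lie below the luciferase shRNA libraries (at least 1.14). In the knockdown experiment Pdha1, Idh3a and Sdhd were tested only through the labelled libraries, so that the filter set part of this gap.

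Groups did not overlap for 5 of the 37 members with age, 2 higher and 3 lower, beside 24.7% of all genes (12.2% higher and 12.5% lower). The 2 higher ones act in the early steps of glycolysis. Pfkm, the muscle-type phosphofructokinase, had normalized counts of 908, 1425 and 1411 in the young and 2072 and 1573 in the aged libraries, a log2 fold change of 0.56 (SE 0.30, adjusted p = 0.649). For Gpi1, the glucose-6-phosphate isomerase, they were 2934, 3649 and 2989.7 against 4829 and 3778, with aged replicate 2 the highest. Tpi1, the triose-phosphate isomerase, had 2264, 4126 and 2839 against 3442 and 4037, and here young replicate 2 exceeded both aged libraries. The other phosphofructokinases did not separate the groups. Pfkl (liver type) had counts of 2035, 4267 and 2886 in the young and 2678 and 2380.3 in the aged libraries, and Pfkp (platelet type) 2910.0, 2514 and 2120.1 against 2717 and 2477. Aldoa, with 11432, 19097 and 17062 against 13153 and 21359.9, had both its lowest value in a young and its highest in an aged library. Hk1, the hexokinase, and Gapdh had log2 fold changes of 0.09 and 0.26.

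The later steps gave no separation either. Eno1 had normalized counts of 5294, 8096 and 8482 in the young and 4026 and 9726 in the aged libraries, whose 2 values lay on either side of all young ones. Eno2 had 1702, 3652 and 2959.6 against 2534 and 3208, with the aged values inside the young range. Ldha had 2444, 2458 and 2732 against 1562 and 3924, again on either side, and Ldhb had 2121, 2536 and 2837 against 2172 and 2897. Pgk1, Pgam1 and Pkm overlapped too, with log2 fold changes between 0.04 and 0.22.

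Ratios of isozymes, taken after adding 1 to each normalized count, were compared by exact two-sided permutation tests, 9 over the 3 experiments. The log2 ratio of Ldha to Ldhb was 0.20, −0.05 and −0.05 in the young and −0.48 and 0.44 in the aged libraries, that of Eno1 to Eno2 was 1.64, 1.15 and 1.52 against 0.67 and 1.6, and that of Pfkm to Pfkp was −1.68, −0.82 and −0.59 against −0.39 and −0.65. All 3 overlapped between ages, with exact p of 1, 0.6 and 0.5, where 3 libraries against 2 allow no p below 0.1.

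PDH held the member with the smallest p with age. Pdha1, the catalytic alpha subunit, had normalized counts of 557, 1032 and 971 in the young and 396 and 346 in the aged libraries. Both aged values were below every young one, and the log2 fold change was −1.15 (SE 0.35), with an unadjusted p of 0.00628 and an adjusted p of 0.481. The other PDH subunits, Pdhb, Dlat and Dld, had log2 fold changes of −0.29, −0.42 and −0.37 with overlapping groups.

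In the TCA cycle, Sucla2 and Idh2 also had both aged values below the young ones. Sucla2, which encodes the subunit of succinyl-CoA synthetase that uses ADP, had 1020.5, 1404 and 1243 normalized counts in the young and 659 and 1018 in the aged libraries (log2 fold change −0.56, adjusted p = 0.649). Idh2, the mitochondrial isocitrate dehydrogenase that uses NADP, was weakly expressed and had a log2 fold change of −0.62 (adjusted p = 0.728). For Idh3a, the catalytic subunit of the isocitrate dehydrogenase that uses NAD, the counts were 907, 1545 and 950.4 against 670.1 and 918, with aged replicate 3 inside the young range. Cs had 999, 1049 and 1208 against 785 and 1340.3, on either side of the young values. Mdh1 had 2811, 4341 and 4640.3 against 3280.2 and 4848, with aged replicate 3 the highest of all. The remaining members of the cycle outside complex II had log2 fold changes between −0.36 (Idh3g) and 0.11 (Suclg1).

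Complex II showed no common direction with age. Sdha had normalized counts of 2089, 3429 and 3039 in the young and 1994 and 2746 in the aged libraries, with aged replicate 2 the lowest. Sdhb, the iron-sulfur subunit, had 1639.6, 2235 and 2085 against 1422 and 2491, on either side of the young values. The membrane anchors did not separate the ages either. Sdhc had 264, 318 and 228 against 240.2 and 359, and Sdhd 1019, 1366 and 789.8 against 868 and 1269.6, each with overlap. Pcx had 389, 178 and 316 against 241 and 563, where the aged libraries held one value within and one above the young range. Akr1a1 had a log2 fold change of 0.21 (adjusted p = 0.872).

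Of 72 other genes of these pathways (transporters, further isozymes, PDH kinases and phosphatases, neighbouring mitochondrial enzymes, the pentose phosphate pathway and regulators), 67 were tested with age and 0 passed in limma. An unadjusted p of 0.05 or less was found for 8, of which 1 was higher and 7 were lower, beside 7.94% of all genes. The smallest p belonged to Slc2a1, the glucose transporter GLUT1, with normalized counts of 708, 349 and 768 in the young and 264 and 130.4 in the aged libraries (log2 fold change −1.63, adjusted p = 0.441). Hkdc1, a hexokinase-like gene, had 84.0, 82.7 and 33.7 against 4.94 and 2.76 (log2 fold change −3.73, adjusted p = 0.461). Both genes were lower in each aged library than in any young one.

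Markers of glia were present in these nuclei, and the part they had in the values was not tested. The 7 oligodendrocyte markers, led by Mbp, summed to 2992, 6813 and 5408 in the young and 3199 and 4297 in the aged libraries, and 6 were lower with age, with a median log2 fold change of −0.61. The 7 astrocyte markers, led by Slc1a2, summed to 8349, 6777 and 5541 against 4293 and 7126, with 6 lower and a median of −0.35. For the 7 microglial markers the sums were 447, 826 and 580.4 against 379 and 1044, with 4 higher. The 3 markers of oligodendrocyte precursors, led by Vcan, summed to 356, 237 and 476 against 168 and 445, with 2 of them lower. The 4 endothelial markers, of which Pecam1 was at 0, gave 37.3, 72.1 and 0 against 105 and 63.4. The dentate granule cell markers Prox1 and Dock10 summed to 627, 839.7 and 381 against 776 and 669. The 7 RNAs retained in nuclei, led by Malat1, summed to 387250.0, 253160.0 and 298268 against 439361 and 238618, with 4 higher. No mitochondrially encoded gene of the 9 looked for was in the tables.

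In the libraries labelled Ftl1 OE, glycolysis members were on balance lower than in the GFP libraries, but 0 of the 37 members passed the test and 0 had groups that did not overlap. Of the glycolysis members, 1 was higher and 14 were lower, with a median log2 fold change of −0.30. Of the PDH and TCA members, 8 were higher and 12 lower, with a median of −0.10, beside 0.10 over all 14099 genes tested, of which 57.4% were higher. In limma, edgeR and DESeq2 alike, 0 members had an adjusted p of 0.05 or less, a level that 0%, 0% and 0.525% of all genes reached. At an unadjusted p of 0.05 or less limma counted 1 member, Sdhc, which was lower, against 7.26% of all genes (3.6% higher and 3.66% lower), and groups did not overlap for 0.582% of all genes. The members so counted numbered 9 without control replicate 2, 5 without labelled replicate 7 and 0 without control replicate 3 or without labelled replicate 3, 4, 5 or 6, and edgeR counted 3 and DESeq2 5. The share of all genes at this p is not given for these other fits, so no result about the members is read from these counts. Ftl1 itself was not higher in the libraries labelled Ftl1 OE.

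The glycolysis members spread widely among the GFP libraries. Their share of reads was 2.01%, 1.54%, 3.24%, 2.50% and 2.69% in the GFP libraries against 1.602% to 2.63% (median 2.00%) in the libraries labelled Ftl1 OE. Control replicate 3, in which 12281 genes had a read, the fewest in this experiment, held the highest value of 14 of the 15 glycolysis members. The PDH and TCA members took a steadier share, 0.595%, 0.560%, 0.624%, 0.634% and 0.518% against 0.519% to 0.616% (median 0.565%). The mean log2 level of glycolysis members minus that of PDH and TCA members was 2.05, 1.69, 3.03, 2.31 and 2.97 in the GFP libraries against 1.76 to 2.55 (median 2.17) in the others, so the groups overlapped. The group means differed by −0.26, and by −0.11 without control replicate 3. Without that library the median log2 fold change of the glycolysis members was −0.13.

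**Figure D2:**
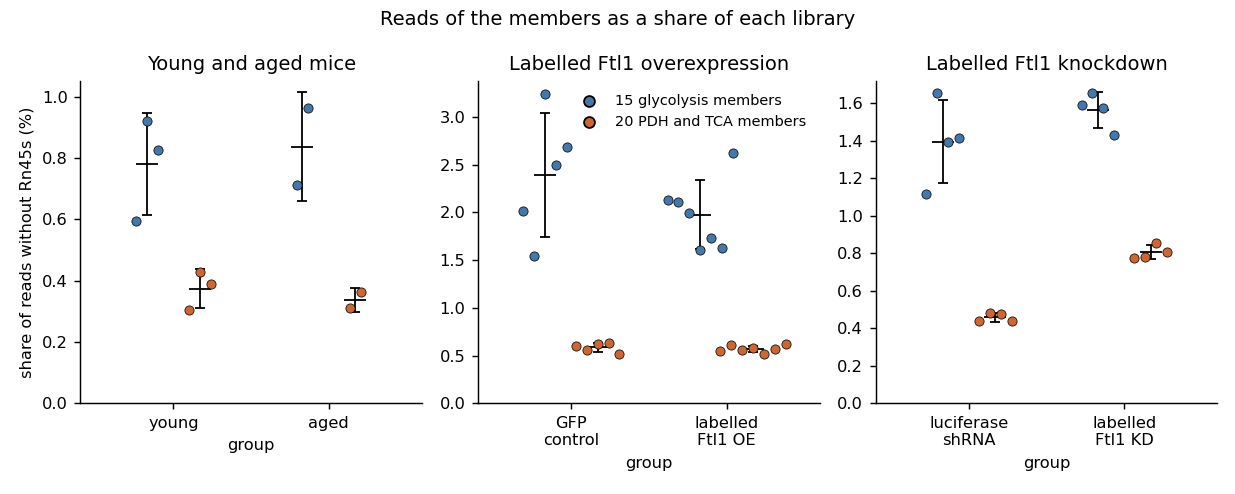
Reads of the 15 glycolysis members (blue) and the 20 PDH and TCA members (orange) as a percent of each library's reads without Rn45s (points), with group mean and SD (bars). The glycolysis share spans 1.54% to 3.24% among the GFP libraries, and the PDH and TCA share is 0.438% to 0.483% in the luciferase shRNA libraries and 0.777% to 0.857% in the libraries labelled Ftl1 KD.

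Control replicate 3 was the highest library for each early glycolysis member except Hk1. Tpi1 had normalized counts of 16439.7, 12788, 40491, 17888 and 28886 in the GFP libraries against 9939.9 to 20811 (median 14285) in the libraries labelled Ftl1 OE (log2 fold change −0.56, SE 0.29, adjusted p = 0.681). Aldoa had 51373, 40412, 122826, 70608 and 85097 against 35194 to 76285 (median 52649), and Gpi1 8098, 7023, 18360.4, 11236 and 14866 against 6752 to 12582 (median 8902). In both genes control replicates 3 and 5 were above every library labelled Ftl1 OE, and the others overlapped with them. Pfkl had counts of 6888, 3848, 13364, 8486 and 9540.1 in the GFP libraries against 4051 to 11160.1 (median 6971) in the others. Pfkm had 3520.4, 3454, 7213, 4790.4 and 4809 against 3900.0 to 6269.6 (median 4714) and was the glycolysis member with a positive log2 fold change, 0.03. Pfkp had 3548, 3509.7, 6269, 4423 and 3799 against 3454 to 4503 (median 3957), the narrowest range of the 3 phosphofructokinases.

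The later members gave the same picture. Eno1 had normalized counts of 26510.4, 9713, 48649.7, 32117 and 35397 in the GFP libraries against 19234 to 37806 (median 24187) in the libraries labelled Ftl1 OE, with control replicate 2 below all others. Eno2 had 15709.8, 15125, 43465, 23220.5 and 31972 against 15406 to 28288 (median 21034). Ldha had 8523, 6703, 17736, 8958 and 11814 against 6495 to 11824 (median 8755), and Ldhb 10893, 7318, 17238, 10392 and 14369 against 5922 to 12339 (median 8200.1). For each of the 4, control replicate 3 was the highest library. The exact permutation p of the log2 ratio was 0.182 for Ldha to Ldhb, 0.609 for Eno1 to Eno2 and 0.419 for Pfkm to Pfkp, with differences of 0.15, 0.13 and 0.12 and overlapping groups, where the smallest p possible was 0.00126. Without control replicate 2 the difference in the Eno1 to Eno2 ratio turned to −0.07. The difference in the Pfkm to Pfkp ratio ran from 0.06 to 0.19 with 1 library left out.

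Pdha1 had the widest relative range of the PDH and TCA members named here. Its counts were 2329.8, 2534, 218, 1612 and 388 in the GFP libraries against 911 to 2759.7 (median 1792) in the libraries labelled Ftl1 OE (log2 fold change 0.74, SE 0.54, adjusted p = 0.735). The low values were control replicates 3 and 5, which were the highest for Aldoa and Tpi1. Sucla2 was also low in control replicates 3, 4 and 5, with 1452, 1656, 771, 842 and 379 against 755 to 1811 (median 1301, log2 fold change 0.45, adjusted p = 0.736), and control replicate 5 was the lowest of all. Idh3a had 2143, 3045, 1210.3, 2153 and 690.0 against 1460.1 to 2533 (median 2207), again lowest in control replicate 5. Cs had 3524, 3577, 3144, 4468 and 3773 against 1860.2 to 5413 (median 4094), with all GFP values inside the labelled range. Mdh1 had 16108, 14753, 21475, 15392 and 12756 against 12038 to 16723 (median 13594), where control replicate 3 was the highest.

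In complex II, the anchor Sdhc had the smallest p of all members in this experiment. Its normalized counts were 1754, 1051, 2364, 1402 and 1437 in the GFP libraries against 770.2 to 1527 (median 1060.2) in the libraries labelled Ftl1 OE, with control replicates 1 and 3 above all of the latter (log2 fold change −0.51, SE 0.23, unadjusted p 0.0382, adjusted p = 0.662). Sdhb had 5499, 3849, 12341, 6518 and 10268 against 3779.5 to 6190.2 (median 4893, log2 fold change −0.51, adjusted p = 0.681), with control replicates 3, 4 and 5 above the rest. The other subunits overlapped too. Sdha had counts of 4913, 4335, 6726, 6069 and 4546 against 4099 to 6422 (median 5503, log2 fold change 0.02), and Sdhd had 3137, 2679.9, 3246, 2827 and 3655 against 2569 to 3580.2 (median 2997, log2 fold change −0.09). Pcx had 1165, 744, 2187, 1364 and 2901 against 1316 to 3048 (median 1659.9, log2 fold change 0.37, adjusted p = 0.768). The other members not named here had log2 fold changes between −0.52 (Gapdh) and 0.41 (Dld).

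Of the 72 other pathway genes, 68 were tested here and 0 passed in limma. An unadjusted p of 0.05 or less was found for 6, of which 2 were higher and 4 lower, beside 7.26% of all genes. Pgls, the 6-phosphogluconolactonase of the pentose phosphate pathway, had normalized counts of 929, 740.0, 3049, 1193 and 1592 in the GFP libraries against 479 to 1129 (median 735) in the libraries labelled Ftl1 OE (log2 fold change −0.81, adjusted p = 0.592). Mpc2, a subunit of the mitochondrial pyruvate carrier, had 2277, 2346, 3209, 2249 and 1557 against 1382 to 1989.7 (median 1647, log2 fold change −0.47, adjusted p = 0.619). In both genes the groups overlapped.

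The 7 microglial markers, led by C1qb, summed to 4574, 2671, 3638, 2347 and 5268 in the GFP libraries against 1361 to 2656 (median 2124) in the libraries labelled Ftl1 OE, with 5 lower, 4 of them at an unadjusted p of 0.05 or less, and a median log2 fold change of −1.13. The 7 astrocyte markers, led by Aldoc, summed to 44962, 36435, 12129, 30032 and 40569 against 19755 to 60006 (median 43120.1), with 6 higher and a median of 0.44. The lowest astrocyte sum of all libraries was that of control replicate 3. The 7 oligodendrocyte markers, led by Mbp, summed to 41398, 26727, 22807, 27424 and 48066 against 26546 to 44287 (median 40253), and those of precursors, led by Cspg4, to 513, 306, 356, 227 and 190.2 against 53.8 to 573 (median 378). Endothelial markers summed to 84.9, 38.1, 0, 98.1 and 351 against 1.77 to 166 (median 63.0), and dentate granule cell markers to 1406, 2697, 391, 1633 and 731 against 983 to 1605 (median 1349). Neuron markers summed to 68847, 87852, 76696, 63610.4 and 66500.2 against 59481 to 76049 (median 66379.5), and RNAs retained in nuclei to 110638, 253191, 61856, 136885 and 87676 against 78266 to 333252 (median 124564), where control replicate 3 was again the lowest. The part of these in the members' values was not tested.

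In the libraries labelled Ftl1 KD, PDH and TCA members were higher almost throughout, while glycolysis members went in both directions. Of the 37 members, 31 were abundant enough to be tested and 10 (32.3%) passed at an adjusted p of 0.05 or less, where 24.2% of all 1460 genes tested did. Of these, 8 rose (Ldha, Ldhb, Pdha1, Cs, Idh3a, Sdha, Sdhd and Mdh1) and 2 fell (Pfkl and Eno2), beside 10.5% and 13.7% of all genes in these directions. Of the 8, Pdha1, Idh3a and Sdhd averaged below 10 in the controls and reached the mean needed for testing only through the labelled libraries, so that they had to differ and the counts of members passing lend no support. With no filter 3 members rose and 1 fell, where 2.49% of all genes passed. At an unadjusted p of 0.05 or less stood 17 members, beside 38.2% of all genes. Groups did not overlap for 9 of the members tested, against 23.8% of all genes. Ftl1 itself rose in these libraries, so that none of these directions goes with less Ftl1 RNA.

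Of the 15 PDH and TCA members tested, 14 were higher and 6 (40%) passed, all of them upward, with a median log2 fold change of 0.71, and 3 of these 6 were tested only through their level in the labelled libraries. With no filter, 17 of all 20 were higher, with a median of 0.75, beside −0.12 over all 13393 genes then tested. At the filter used, the median over all 1460 genes tested was −0.01, with 49.5% higher. Of the 15 glycolysis members, 10 were higher and 5 lower, 4 (26.7%) passed, 2 in each direction, and the median was 0.21. edgeR and DESeq2 each called 13 members, 11 higher and 2 lower, among them the 10 that limma called, beside 28.6% and 28% of all genes. Centring each library on its median raised the median over all genes from −0.01 to 0.10 and turned the split of passing genes from 154 higher and 200 lower to 197 and 161, and 14 members then passed, 12 of them upward. The PDH and TCA median was then 0.82.

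The share of reads on the 20 PDH and TCA members was 0.439%, 0.483%, 0.474% and 0.438% in the luciferase shRNA libraries against 0.777%, 0.782%, 0.857% and 0.807% in the libraries labelled Ftl1 KD. The groups did not overlap, and the mean was 1.76-fold higher. The glycolysis share was 1.12%, 1.66%, 1.39% and 1.41% against 1.59%, 1.65%, 1.57% and 1.43%, where control replicate 2 was as high as any labelled library. The mean log2 level of glycolysis members minus that of PDH and TCA members was 1.48, 1.595, 1.14 and 1.58 in the controls against 0.88, 1.03, 0.76 and 0.87 in the labelled libraries. Each labelled library was below each control, and the difference of the means was −0.56. Here the PDH and TCA mean covers the 15 members tested, among them Pdha1, Idh3a and Sdhd, tested only through the labelled libraries. The filter thus set part of this difference, and no support is drawn from it. Without control replicate 3, the glycolysis median of the log2 fold changes was 0.02.

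**Figure D3:**
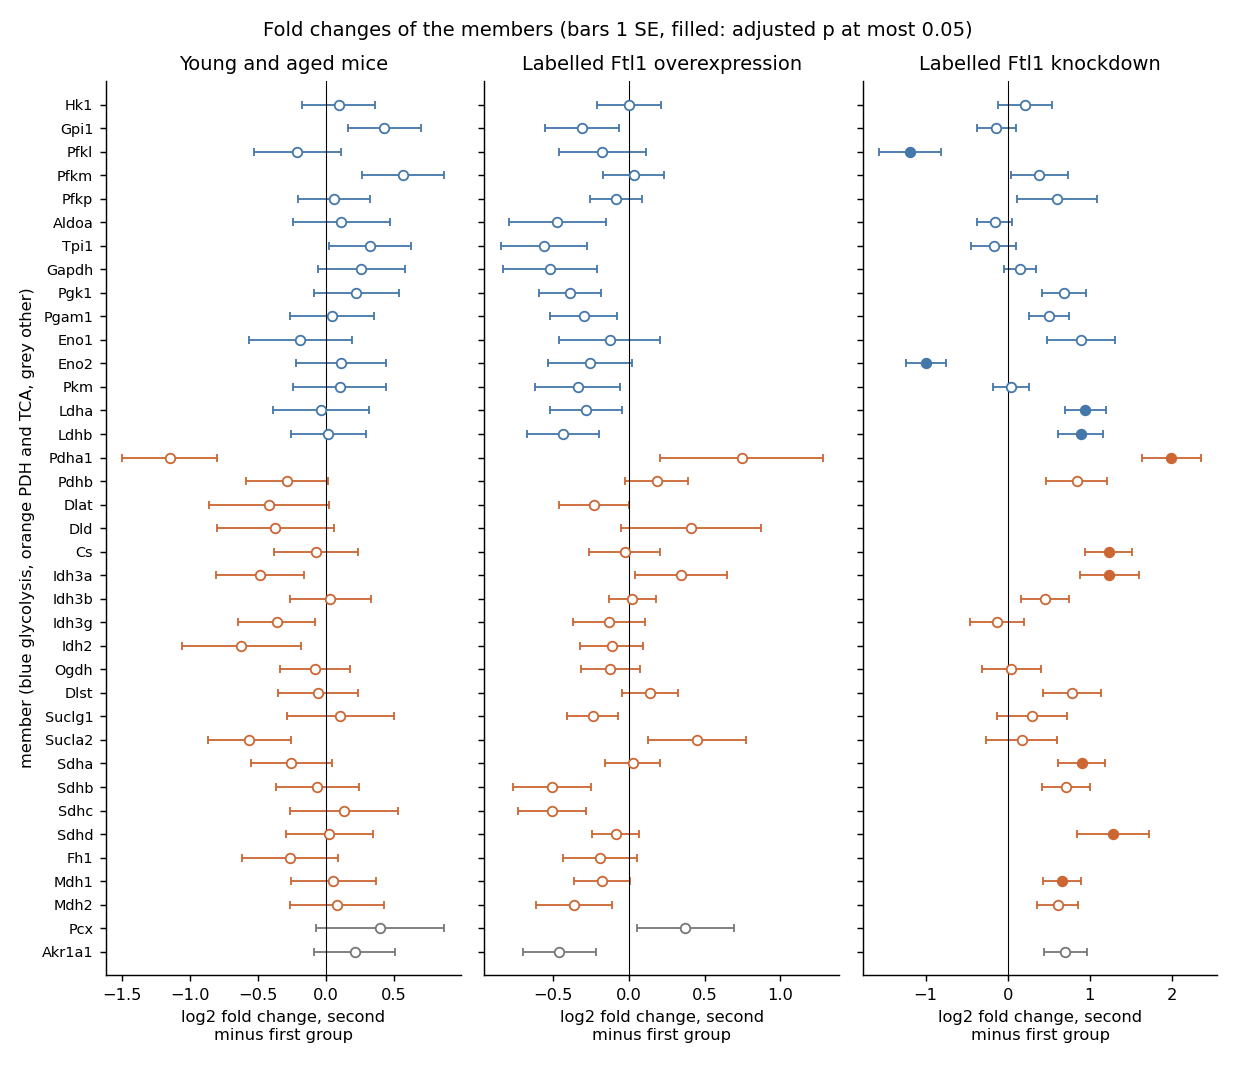
Log2 fold change of each member tested (points; bars, SE) from limma in the aging (aged minus young), overexpression (labelled Ftl1 OE minus GFP) and knockdown (labelled Ftl1 KD minus luciferase shRNA) experiments, filled where the test was passed. In the knockdown panel 14 of 15 PDH and TCA members lie above 0, and 10 members, Pfkl and Eno2 to the left among them, are filled.

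Control replicates 2 and 5 held more than 150000 reads each, more than any other knockdown library. Without these, 4 of the 31 members passed (Eno2, Ldhb, Pdha1 and Cs) beside 7.67% of all genes, in a comparison of 2 against 4 libraries. The number of members passing was 6 without labelled replicate 1 (beside 20% of all genes) and 6 without labelled replicate 4 (beside 21%). With any other library left out it was between 7 and 14, beside 16.1% to 30.1% of all genes. With every gene tested, whatever its level, 4 of 37 members passed (Eno2, Ldha, Pdha1 and Cs), beside 334 of 13393 genes (2.49%). A filter at a mean of 100 left neither Pdha1 nor Cs to be tested, and in each of the 17 other settings tried both passed. Of the others, Eno2 passed in 16, Ldha in 15, Idh3a in 13, Ldhb in 12, Sdha in 11, Pfkl in 10, Sdhd in 9 and Mdh1 in 8. At the filter used, Pdha1, Idh3a and Sdhd were tested only through the labelled libraries. All settings also reuse libraries of the same experiment, so these counts of settings lend no support.

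In the early steps of glycolysis, the one member that passed fell. Pfkl had normalized counts of 17.9, 33.5, 14.98 and 36.8 in the luciferase shRNA libraries against 7.67, 17.1, 5.47 and 13.2 in the libraries labelled Ftl1 KD. The 2 deep controls, replicates 2 and 5, were the highest, and the groups overlapped (log2 fold change −1.19, SE 0.38, adjusted p = 0.0222). Without these controls the log2 fold change was −0.67 and the adjusted p 0.391. The other phosphofructokinases overlapped between groups. Pfkm had counts of 21.7, 23.0, 9.36 and 40.5 against 32.6, 27.96, 18.2 and 35.3, and Pfkp 29.3, 17.3, 1.87 and 23.0 against 13.4, 20.7, 36.4 and 16.2, with control replicate 3 the lowest in both. Aldoa had 109, 214, 155 and 199 in the controls against 169.7, 139, 138 and 143 in the labelled libraries (log2 fold change −0.16). Gpi1 had 47.2, 57.3, 54.3 and 48.1 against 49.9, 55.0, 34.6 and 49.95, and Tpi1 67.0, 75.4, 31.8 and 92.4 against 49.9, 64.9, 47.4 and 60.2. All 3 overlapped, and control replicate 3 was the lowest for Tpi1. Hk1 and Gapdh had log2 fold changes of 0.21 and 0.15.

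Of the enolases, Eno2 fell. Eno2, the neuronal enolase, had normalized counts of 83.1, 105, 76.8 and 68.1 in the luciferase shRNA libraries against 47.9, 40.6, 45.5 and 30.9 in the libraries labelled Ftl1 KD, each labelled library below each control. Its log2 fold change was −0.997 (SE 0.24, adjusted p = 0.00341), from a mean of 83.2 ± 15.7 (SD, n = 4) to 41.2 ± 7.57 (SD, n = 4). Eno1 had 22.7, 78.3, 67.4 and 10.03 against 86.3, 88.4, 63.8 and 32.3, with control replicates 1 and 5 below every labelled library (log2 fold change 0.89, adjusted p = 0.112). The copy Eno1b was arranged the other way, with 62.3, 35.5, 9.36 and 67.3 against 20.1, 5.41, 3.64 and 54.4, and was highest in control replicates 1 and 5. It made up 73.3%, 31.2%, 12.2% and 87.0% of the sum of both genes in the controls against 18.9%, 5.77%, 5.41% and 62.7% in the labelled libraries. The log2 ratio of Eno1 to Eno2 was −1.83, −0.42, −0.19 and −2.65 in the controls against 0.83, 1.10, 0.48 and 0.07 in the labelled libraries, without overlap. The difference of 1.89 had an exact two-sided permutation p of 0.0286, the smallest that 4 libraries against 4 allow, and an adjusted p of 0.257 over the 9 ratios.

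With Eno1b added to Eno1, a variant chosen after seeing the data, the log2 ratio to Eno2 was 0.03, 0.12, 0.00 and 0.18 in the controls against 1.13, 1.19, 0.56 and 1.46 in the labelled libraries. The sum of both genes overlapped between groups, and the log2 ratio differed by 1.00, beside −0.997 for Eno2 itself. Since the sum was formed after its values were seen, no test is given. In the aging experiment the same variant gave a difference of −0.13 in place of −0.30, and in the overexpression experiment 0.14 in place of 0.13.

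**Figure D4:**
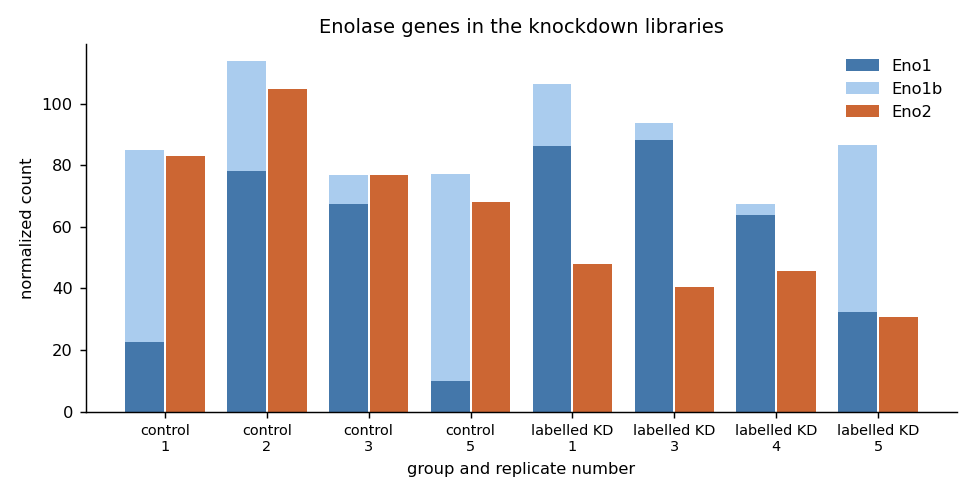
Normalized counts of Eno1 with its copy Eno1b stacked on it, and of Eno2, in each knockdown library. Eno2 is at most 47.9 in the libraries labelled Ftl1 KD and at least 68.1 in the controls, and Eno1b makes up between 5.41% and 87.0% of the stacked bar.

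At the end of glycolysis, both lactate dehydrogenase genes rose. Ldha had normalized counts of 25.5, 30.7, 37.4 and 24.7 in the luciferase shRNA libraries against 52.7, 61.3, 60.1 and 54.4 in the libraries labelled Ftl1 KD, without overlap. The log2 fold change was 0.94 (SE 0.25, adjusted p = 0.0069). Ldhb had 22.7, 41.5, 22.5 and 38.9 against 53.7, 62.2, 74.7 and 41.1, where labelled replicate 5 was within the range of the controls (log2 fold change 0.89, SE 0.27, adjusted p = 0.0187). Their ratio did not differ between groups beyond its spread. The log2 ratio of Ldha to Ldhb was 0.16, −0.43, 0.71 and −0.64 in the controls and −0.03, −0.02, −0.31 and 0.39 in the labelled libraries (difference 0.06, exact permutation p = 0.886). That of Pfkm to Pfkp was −0.41, 0.39, 1.85 and 0.79 against 1.22, 0.41, −0.96 and 1.08 (difference −0.22, exact permutation p = 0.8), and the difference was −0.06 when 5 was added in place of 1. Pgk1, the phosphoglycerate kinase, was higher in each labelled library than in any control but did not pass (log2 fold change 0.69, adjusted p = 0.0644). Pgam1 and Pkm had log2 fold changes of 0.50 and 0.04.

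In the PDH complex, Pdha1 had the largest log2 fold change of the members tested. Its normalized counts were 6.61, 5.24, 7.49 and 4.18 in the luciferase shRNA libraries against 32.6, 21.6, 21.9 and 29.4 in the libraries labelled Ftl1 KD. Its control mean is below the 10 needed for testing, which it reached through the labelled libraries, and it also passed with no filter. Each labelled library was above each control, on between 4 and 34 reads a library. The means were 5.88 ± 1.46 (SD, n = 4) and 26.4 ± 5.49 (SD, n = 4), and the log2 fold change was 2.00 (SE 0.36, adjusted p = 0.000431). Pdhb, the beta subunit, had a log2 fold change of 0.84 (adjusted p = 0.0945). The genes of the acyltransferase core and of the shared dehydrogenase, Dlat and Dld, were below a mean of 10 and were not tested. Dlat had 8.49, 2.82, 1.87 and 5.43 in the controls against 4.79, 8.12, 3.64 and 1.47 in the labelled libraries, and Dld 0.944, 2.42, 5.62 and 1.67 against 5.75, 8.12, 7.29 and 2.94, both with overlap.

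In the TCA cycle, Cs and Idh3a rose. Cs, which joins acetyl-CoA to oxaloacetate, had normalized counts of 14.2, 19.8, 22.5 and 11.3 in the luciferase shRNA libraries against 41.2, 40.6, 41.9 and 35.3 in the libraries labelled Ftl1 KD. The groups did not overlap, and the log2 fold change was 1.23 (SE 0.29, adjusted p = 0.00297). Idh3a had 9.44, 6.45, 7.49 and 7.94 against 17.3, 18.9, 18.2 and 25.0, also without overlap (log2 fold change 1.24, SE 0.36, adjusted p = 0.0132). It was tested only through the labelled libraries and did not pass with no filter. The partner subunits of the same enzyme did not pass. Idh3b had a log2 fold change of 0.45 (adjusted p = 0.25), and Idh3g, the one PDH and TCA member tested that was lower, had −0.13 (adjusted p = 0.803). Of the members for succinyl-CoA formation and use, Dlst had 0.78, Suclg1 0.30, Sucla2 0.17 and Ogdh 0.04. For Sucla2 the counts were 6.61, 6.45, 16.9 and 11.3 in the controls against 11.5, 12.6, 10.9 and 8.82 in the labelled libraries, which overlapped.

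Mdh1, the cytosolic malate dehydrogenase, had counts of 60.4, 40.3, 48.7 and 46.4 in the luciferase shRNA libraries against 83.4, 82.1, 78.3 and 66.1 in the libraries labelled Ftl1 KD. Each labelled library exceeded each control (log2 fold change 0.66, SE 0.23, adjusted p = 0.0346). Its mitochondrial counterpart Mdh2 was also higher without overlap but did not pass (log2 fold change 0.61, adjusted p = 0.0713). Fh1, the fumarase, was too low to be tested and had 8.49, 3.23, 3.74 and 4.60 against 9.59, 12.6, 10.9 and 17.6, each labelled library above each control. Idh2, also not tested, had 8.49, 7.66, 0 and 6.69 against 0.959, 0.902, 0 and 5.88, with overlap.

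All 4 genes of complex II had a higher mean in the libraries labelled Ftl1 KD, and 2 passed. Sdha had normalized counts of 18.9, 27.0, 14.98 and 15.05 in the luciferase shRNA libraries against 38.4, 39.7, 25.5 and 39.7 in the libraries labelled Ftl1 KD, where labelled replicate 4 was below control replicate 2 (log2 fold change 0.90, SE 0.29, adjusted p = 0.0256). Sdhd had 2.83, 6.05, 9.36 and 11.3 against 19.2, 11.7, 29.1 and 14.7, without overlap (log2 fold change 1.29, SE 0.44, adjusted p = 0.0325). Its values rested on between 3 and 27 reads a library. It too was tested only through the labelled libraries and did not pass with no filter. Sdhb had 13.2, 19.4, 18.7 and 29.3 against 32.6, 33.4, 36.4 and 27.9, with labelled replicate 5 below control replicate 5 (log2 fold change 0.71, adjusted p = 0.072). Sdhc was not tested and had 2.83, 3.63, 1.87 and 5.43 against 4.79, 8.12, 12.8 and 7.35, with the same control inside the labelled range. Pcx, not tested either, had 1.89, 9.68, 16.9 and 3.76 against 10.5, 8.12, 3.64 and 11.8, and Akr1a1 had a log2 fold change of 0.70 (adjusted p = 0.0526).

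**Figure D5:**
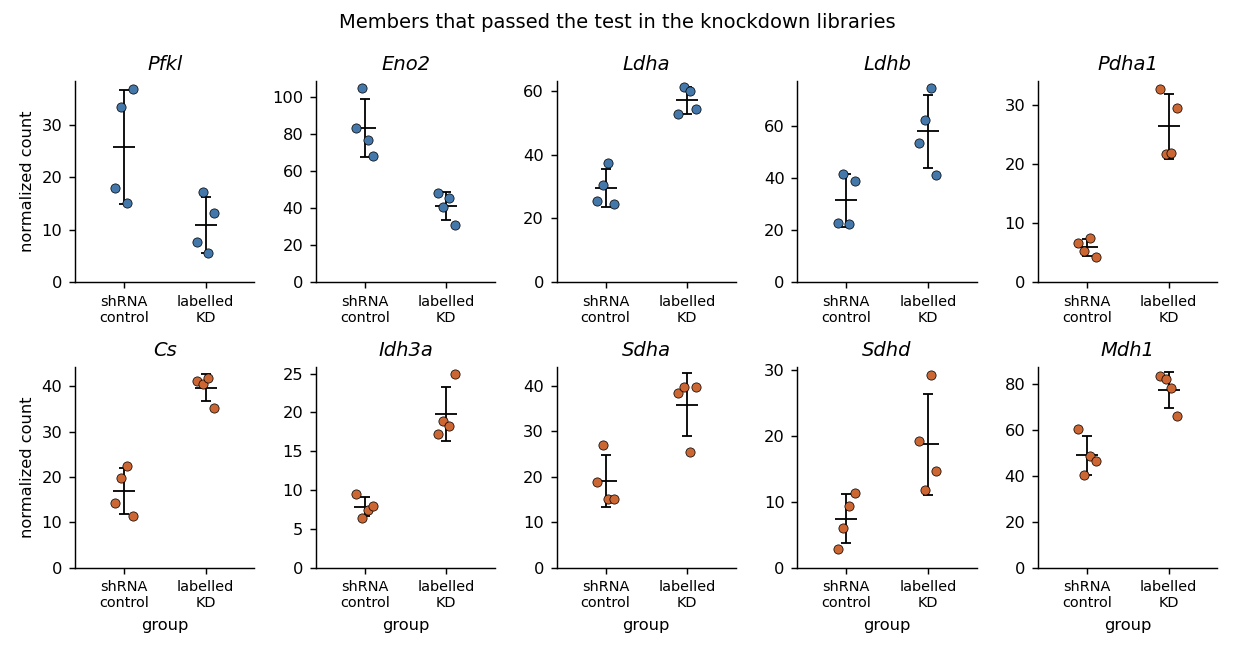
Normalized counts of the 10 members that passed the test in the knockdown experiment, for each library (points), with group mean and SD (bars), glycolysis in blue and PDH and TCA in orange. Pfkl, Ldhb and Sdha overlap between groups, and the other 7 do not.

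Of the 72 other pathway genes, 11 were tested in the knockdown experiment, 9 of them higher. At the threshold in limma 2 rose and 0 fell, beside 24.2% of all genes. Idh1, the cytosolic isocitrate dehydrogenase, had normalized counts of 6.61, 2.42, 3.74 and 3.76 in the luciferase shRNA libraries against 18.2, 16.2, 16.4 and 19.1 in the libraries labelled Ftl1 KD (log2 fold change 1.91, adjusted p = 0.00719). Its groups did not overlap, and with a control mean below 10 it was tested only through the labelled libraries. At the depth of these libraries, 0 of the 11 genes for PDH control and its other subunits and 0 of the 9 regulators could be tested.

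RNA kinds and cell type markers moved in the same comparison, and their part in the members' values was not tested. The share of Rn45s was at least 49.4% in control replicates 2, 3 and 5 and at most 34.5% in the labelled libraries, and control replicate 1, at 31.9%, was within the labelled range. Of the 7 RNAs retained in nuclei, led by Malat1, the 4 tested all fell (Miat was tested only through its control level), with a median log2 fold change of −1.83, and the list summed to 1004, 619, 697 and 1235 in the luciferase shRNA libraries against 322, 234, 219 and 229 in the libraries labelled Ftl1 KD. The 7 oligodendrocyte markers, led by Mbp, summed to 61.3, 93.6, 71.2 and 36.8 against 18.2, 21.6, 10.9 and 13.2, and the 2 tested both fell, with a median of −1.87, and were tested only through their level in the controls. The 7 astrocyte markers, led by Aldoc, summed to 73.6, 67.0, 35.6 and 47.2 against 72.9, 68.5, 82.0 and 79.3, and 1 of the 3 tested passed, Slc1a3, which rose (log2 fold change 2.05, adjusted p = 0.000541) and was tested only through the labelled libraries. Of the 9 neuron markers 5 were tested, of which Gad1, of inhibitory neurons, rose (log2 fold change 1.49, adjusted p = 0.0038) and Slc17a7, of excitatory neurons, fell (log2 fold change −1.35, adjusted p = 0.0327).

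The remaining marker lists were near the limit of detection, and none of their genes was tested. Microglial markers, led by C1qb, summed to 1.89, 16.1, 13.1 and 9.20 in the controls against 11.5, 3.61, 1.82 and 1.47 in the labelled libraries, and markers of oligodendrocyte precursors, led by Vcan, to 2.83, 1.21, 0 and 0 against 1.92, 6.31, 3.64 and 2.94. The dentate granule cell markers summed to 1.89, 6.05, 0 and 6.69 against 0.959, 0, 1.82 and 2.94. Of the endothelial markers, Flt1, Pecam1 and Kdr were at 0 in all 8 libraries, and Cldn5 gave 0, 0, 0 and 0 against 0, 0, 1.82 and 2.94. A count of 0 in 1 library allows up to 3 reads, or between 1.21 and 5.62 normalized counts at these depths.

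Set side by side, Pdha1 was lower with age (log2 fold change −1.15), where it did not pass. It was higher in the libraries labelled Ftl1 KD (log2 fold change 2.00), where it passed, also with no filter. At the filter used it was tested only through its level in those libraries. The difference of glycolysis minus PDH and TCA members was also opposite, 0.36 with age and −0.56 in the libraries labelled Ftl1 KD. The first value covers all 20 PDH and TCA members and the second only the 15 tested. Of these, Pdha1, Idh3a and Sdhd were tested only through the labelled libraries. In the libraries labelled Ftl1 OE, the log2 fold change of Pdha1 was 0.74, which did not pass, and the difference was −0.26. Both had the same signs as in those labelled Ftl1 KD, with overlapping groups. The aged mice of the first experiment are not the animals of the knockdown experiment, the tables were normalized separately, and whether these differences differ between experiments was not tested.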

How the data were processed

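NeuN-sorted hippocampal nuclei gave 25 libraries in 3 experiments. Per the labels, the authors used STAR (mm10) for alignment, RSEM for counting and DESeq2 for normalization, without giving versions there. The deposited tables hold a signal, the normalized count, for 24411 genes in each library. Groups came from the sample labels, as did replicate numbers, except in the overexpression experiment, where libraries were numbered in the order of the sample records and the numbers are not the study's own. The authors' comparison columns (means, fold changes with errors, statistics and p-values) were not used, and 0 library columns were left out. In every library 100% of the values were whole multiples of a step, within a tolerance of 0.01, so that reads could be recovered.

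The test was limma 3.58.1 in R 4.3.3, with a trend, on log2(normalized count + 1), over genes with a mean of at least 10 (13712, 14099 and 1460), adjusted over all of them by the Benjamini-Hochberg method. Samples of an experiment were compared by group alone. A gene passed if its adjusted p was no higher than 0.05, and with age the absolute log2 fold change had to be 0.5 or more. edgeR 4.0.16 called 0, 0 and 418 genes and DESeq2 1.42.0 called 163, 74 and 409 on the recovered reads. The models were tested on simulated data, and no result of this is given here. Isozyme ratios were compared by exact two-sided permutation tests, adjusted over 9. Other settings were pseudocounts, filters, TMM scaling, median centring, a replicate block, and leaving out libraries. At 48902 to 358560 reads, the knockdown tables give low counts few reads.

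Members and lists were chosen with earlier results of these data known. Values are printed for members that passed in any experiment, the 3 with the smallest p in each direction per experiment, the isozymes and Ftl1. Other pathway genes are named where they passed (1 is left out), otherwise the 2 with the smallest p. Counts describe the lists without a test. Exon lengths came from GENCODE M21, start regions from RefSeq. Plots used Python 3.11.15, matplotlib 3.10.9, numpy 2.4.6 and pandas 2.3.3.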

Additional observations from a re-analysis of the deposited data

Results flagged for a closer look

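In 108 tests over groups of 4 to 7 libraries, the highest and the lowest library were compared with the nearest other, as a share of the range, and 3 had a gap that chance gives in about 1 in 20 groups, so that 3 in 108 is no more than chance gives. The mean log2 level of the PDH and TCA members in control replicate 5 of the overexpression experiment was 10.999, the lowest of 5, with the nearest at 11.37, and the gap was 0.885 of the range. Sdha in labelled replicate 4 of the knockdown experiment was the lowest of 4, at 4.73 on the log2 scale with the nearest at 5.30, a gap of 0.923 of the range. Aldoa in labelled replicate 1 of the same experiment was the highest of 4, at 7.42 with the nearest at 7.17, a gap of 0.858 of the range.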

How the results depend on the processing

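The number of members passing stayed at 0 with age and in the libraries labelled Ftl1 OE in all settings run. In the knockdown experiment it was 10 as reported and 4 without the controls above 150000 reads, 4 with no filter, and 0 with a filter at a mean of 100, where 2 glycolysis members and 0 PDH and TCA members were tested, so that the PDH and TCA median and the contrast have no value. The share of all genes passing was 24.2% as reported, 7.67% without those controls, 2.49% with no filter and 62.1% at the filter of 100. Leaving out 1 library gave 6 to 14 members passing, beside 16.1% to 30.1% of all genes. The number was 6 without labelled replicate 1 (beside 20% of all genes) and 6 without labelled replicate 4 (beside 21%). With a replicate block 4 members passed (Eno1, Pdha1, Cs and Sdha) beside 173 genes in all, but libraries with the same number were no more alike than others (correlations of their deviations between −0.0727 and 0.0727 over all pairings), so that the block is not preferred. In the block the glycolysis median with age was −0.066, with 6 of 15 members higher, the log2 ratio difference of Ldha to Ldhb with age turned to 0.0304 and that of Pfkm to Pfkp in the knockdown experiment to 0.16.

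The knockdown glycolysis median was −0.0053 at the filter of 100 and 0.0207 to 0.35 with 1 library left out, 0.0207 without control replicate 3. The PDH and TCA median was 0.82 with median centring, 0.61 with a pseudocount of 5 and 0.64 to 0.73 with 1 library left out. With age, leaving out 1 library gave −0.11 to 0.35 for glycolysis (−0.066 without young replicate 1) and −0.47 to −0.0553 for PDH and TCA, −0.47 without aged replicate 3 and −0.0553 without aged replicate 2. In the overexpression experiment these were −0.48 to −0.13 and −0.15 to −0.03. With 1 library left out the contrast kept its sign, at 0.33 to 0.38 with age, −0.44 to −0.11 in the libraries labelled Ftl1 OE and −0.67 to −0.51 in those labelled Ftl1 KD, where other settings gave −0.58 to −0.42, −0.42 without the controls above 150000 reads. As reported, the knockdown contrast includes Pdha1, Idh3a and Sdhd, which were tested only through the labelled libraries, so that its steadiness lends no support.

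Of the 9 isozyme ratios, 5 changed sign when 1 library was left out and 4 did not. With age, Ldha to Ldhb ran from −0.51 to 0.40 (0.03 without young replicate 1, 0.40 without aged replicate 2) and Eno1 to Eno2 from −0.77 to 0.17 (0.17 without aged replicate 2). In the overexpression experiment Eno1 to Eno2 ran from −0.0745 to 0.27 (−0.0745 without control replicate 2). In the knockdown experiment Ldha to Ldhb ran from −0.14 to 0.31 (−0.07 without control replicate 2, −0.14 without control replicate 5, −0.07 without labelled replicate 5) and Pfkm to Pfkp from −0.57 to 0.25 (0.18 without control replicate 3, 0.25 without labelled replicate 4), with −0.0634 at a pseudocount of 5. Eno1 to Eno2 there ran from 1.43 to 2.25. The cause of these shifts was not tested, and the depth of the knockdown libraries left most genes untested.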
